A study of Mus musculus with 33 samples.

Results

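The genes described here code for the secreted and membrane-bound metalloproteases that cut the extracellular matrix, and for their tissue inhibitors. These gene families were chosen with earlier results of these data known, but their members were taken by name alone. The members were every gene whose symbol starts with Mmp, Adamts or Timp followed by a number, and they came to 46 of the 52631 genes in the table. These were 23 Mmp genes (matrix metalloproteases), 19 Adamts genes (proteases with a disintegrin domain and thrombospondin repeats) and 4 Timp genes (tissue inhibitors of metalloproteases). A filter of at least 1 FPKM in at least 3 libraries was passed by 31 of them, namely 11 Mmp, 17 Adamts and 3 Timp genes, and only these could be tested. The 15 others were Mmp1a, Mmp1b, Mmp7, Mmp8, Mmp9, Mmp10, Mmp12, Mmp13, Mmp20, Mmp21, Mmp25, Mmp27, Adamts13, Adamts18 and Timp4. Of the 31 that passed, Mmp3 reached 1 FPKM in SMC libraries alone and Adamts16 in RA-16d libraries alone, so each of these had to stand out in that group. Mmp24 reached 1 FPKM in 6 libraries, those of RA/CHIR-10d and RA/CHIR-16d. Adamts3, Adamts19, Adamts20 and Mmp16 had a mean of at least 1 FPKM in RA groups without CHIR alone. The filter thus in part set the calls of these genes where such groups were compared with others, and their part in those counts.

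Matrix metalloproteases are made as inactive precursors and are held in check by TIMPs, which plug the active site. The best known chain of activation takes place at the cell surface, where the membrane protease Mmp14, with Timp2 as an adaptor, cuts the precursor of the gelatinase Mmp2. The ADAMTS enzymes fall into groups by substrate: proteoglycans such as versican and aggrecan, the amino-terminal ends of procollagens, fibrillin-rich microfibrils, or the cartilage protein Comp. Cells that build a fibrous matrix, such as smooth muscle cells and fibroblasts, are known for high levels of many of these genes, and the extraembryonic endoderm builds and remodels a basement membrane.

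RNA was read by poly(A) sequencing of 33 mouse libraries in 11 groups of 3, all labelled with the strain 129S2/SvPas. The RA/CHIR groups (RA/CHIR-4d, RA/CHIR-7d, RA/CHIR-10d and RA/CHIR-16d) were embryonic stem cells treated on gelatin with 10 µM all-trans retinoic acid and 5 µM CHIR, an inhibitor of the kinase GSK3 that turns on Wnt signalling; the labels call their cells XEN-like. The RA groups (RA-4d, RA-7d, RA-10d and RA-16d) had the same retinoic acid without CHIR and are labelled as SMC-like. In both arms the inducers were given for 10 days in 15% serum and were followed by 6 days in 10% serum without them, so day 16 differs from day 10 in time, inducer and serum together, and these cannot be told apart. XEN (extraembryonic endoderm cells) and SMC (smooth muscle cells) were untreated cells in 15% serum, and the starting stem cells (mES) grew with LIF on inactivated mouse embryonic fibroblasts. The labels do not say that the 3 replicates of a group were separate cultures, so the p-values measure the spread between libraries, which may be technical.

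Levels are FPKM, the fragment number scaled by transcript length and library size, as the authors computed it; no fragment counts were used here, so depth and counting intervals are unknown. A library had between 11573 and 13662 genes at 1 FPKM or more, and its column summed to between 597010 and 1086371 FPKM. Differences are log2 differences of FPKM + 1, which understates the change of weakly expressed genes, and are given with the standard error (SE) of the limma fit over all 33 libraries. A gene was called higher or lower at an adjusted p under 0.05, after Benjamini-Hochberg correction across the 16508 tested genes, together with a log2 difference of at least 1 in size. Defining markers followed the labels in part: the summed FPKM of 8 smooth muscle markers was 467 to 483 in RA/CHIR-16d libraries, 8979 to 10332 in RA-16d libraries and 18665 to 19332 in SMC, and that of 8 extraembryonic endoderm markers was 1153 to 1255 in RA/CHIR-16d libraries, 335 to 371 in RA-16d libraries and 666 to 711 in XEN. The summed FPKM of 7 pluripotency markers was 984 to 1038 in RA/CHIR-16d, 39.6 to 67.2 in RA-16d, 1.47 to 1.89 in XEN and 7687 to 9078 in mES. The RA/CHIR-16d libraries had 25.6 to 27.2 FPKM of 6 endothelial markers and 185 to 196 FPKM of 6 macrophage markers, and the RA-16d libraries 24.9 to 29.4 and 25.5 to 36.8 FPKM. These sums rest on part of each list. Of the 6 macrophage markers, 3 had a mean under 1 FPKM in RA/CHIR-16d and 3 in RA-16d, and of the 6 endothelial markers 3 and 4 did.

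The group means of the 46 genes ran between 0 and 4962 FPKM. A group mean of at least 1 FPKM was reached in some group by 34 genes, and a mean of at least 10 FPKM by 19. Just 8 genes had a mean of at least 1 FPKM in each of the 11 groups, and Mmp1a was listed at 0 in all 33 libraries. Of the 34 genes, 15 had their highest mean in SMC, 8 in RA-16d, 3 in RA/CHIR-10d, 2 each in RA-10d, XEN and mES, and 1 each in RA/CHIR-16d and RA-7d. The gene that peaked in RA/CHIR-16d was Adamts9, and the 2 that peaked in XEN were Adamts8 and Adamts15. Of the other proteoglycan-cutting ADAMTS enzymes, Adamts1 and Adamts5 had their highest mean in SMC, Adamts4 in RA-16d and Adamts20 in RA-10d.

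**Figure D1:**
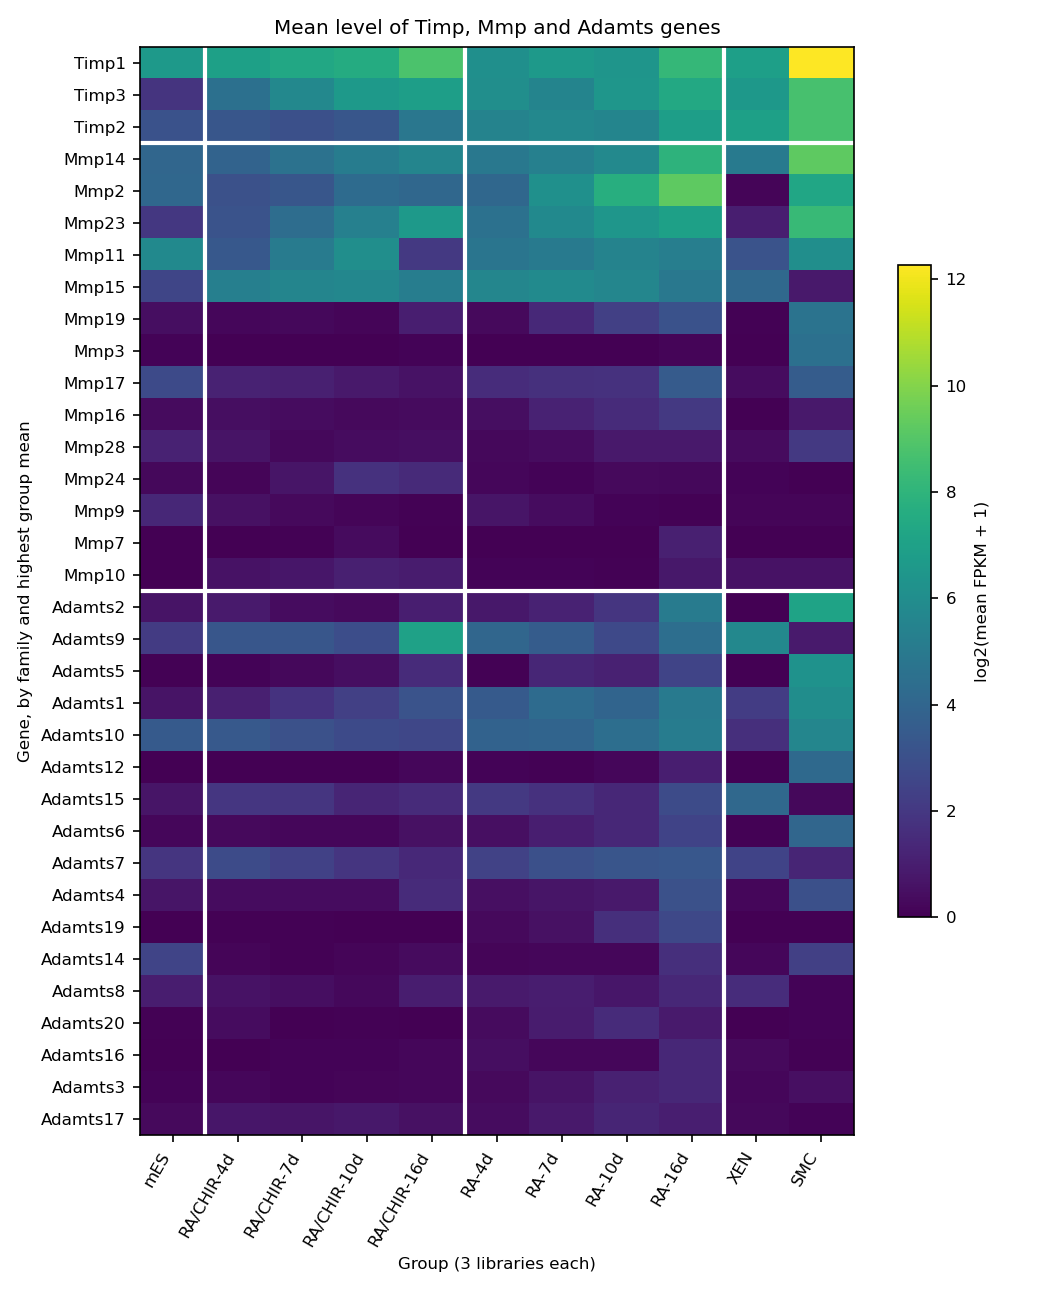
Mean level of the 34 genes that reached 1 FPKM in some group, as log2(mean FPKM + 1), with groups of 3 libraries in columns and genes in rows ordered by family and by highest mean. SMC and RA-16d hold most of the bright rows, Timp1 in SMC is the brightest cell at a mean of 4962 FPKM, and Adamts9 stands out in RA/CHIR-16d at 131 FPKM.

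Since FPKM is scaled by length, the levels within a family can be added. The Mmp genes together came to 205 ± 1.93 FPKM in RA/CHIR-16d and 1053 ± 124 FPKM in RA-16d (SD, n = 3 each), and the Adamts genes to 155 ± 4.13 FPKM in RA/CHIR-16d and 168 ± 17.04 FPKM in RA-16d. The inhibitors came to 596 ± 14.2 FPKM in RA/CHIR-16d and 573 ± 22.1 FPKM in RA-16d. The Mmp sums of the day-16 arms lay far apart, while the ranges of the Adamts sums and of the Timp sums overlapped. What made up the Adamts sum was not alike: Adamts9 alone held 84.6% of it in RA/CHIR-16d, whereas its highest member in RA-16d, Adamts10, held 20.6%. XEN had 57.9 ± 4.3 FPKM of Mmp genes and 337 ± 6.38 FPKM of Timp genes, against 1197 ± 24.1 FPKM and 5793 ± 263 FPKM of the same families in SMC. The mES libraries had 106 ± 12.9 FPKM of Mmp genes and 104 ± 17.4 FPKM of Timp genes.

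A run of 10 Mmp genes lies together on chromosome 9 (GRCm38, chr9:7272514-7699585) and was close to silent throughout, apart from Mmp3 in SMC. It holds the collagenases Mmp1a, Mmp1b, Mmp8 and Mmp13, the stromelysins Mmp3 and Mmp10, the matrilysin Mmp7, the elastase Mmp12, the enamel protease Mmp20, and Mmp27. The GENCODE annotation lists Mmp1a as a polymorphic pseudogene. In 7 of the 10, the mean stayed under 1 FPKM in all groups. Mmp3, which cuts proteoglycans and activates other Mmp precursors, was at 18.7, 23.5 and 24.4 FPKM in the SMC libraries. In the other 10 groups its mean did not exceed 0.111 FPKM. Mmp10 reached 1.17, 1.25 and 0.93 FPKM in RA/CHIR-10d, against 0, 0 and 0.109 FPKM in RA-10d, and Mmp7 was at 1.43, 0.234 and 1.75 FPKM in RA-16d, where it varied between libraries, and at 0 in all 3 RA/CHIR-16d libraries. Mmp12 had its highest mean, 0.903 FPKM, in RA-16d.

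Promoter sequences are shown for this run because most of its genes share a motif. RefSeq (GRCm38.p6) gave a window of 250 bases before the start site for 32 of the 46 genes, among them all 10 of the chromosome 9 run. The letters TGANTCA, the consensus that AP-1 factors (Fos and Jun dimers) are known to bind, were searched on both strands, and stood in at least 1 window of 8 of the 10 (all but Mmp8 and Mmp27). They stood in none of the other 22 genes with a window, and in 6.75% of 32851 windows of all genes. For 4 genes of the run, the last 100 bases before the RefSeq start are given 5′ to 3′ on the gene's strand, with the AP-1 letters in capitals.
Mmp13 (chr9:7272414-7272513, plus strand): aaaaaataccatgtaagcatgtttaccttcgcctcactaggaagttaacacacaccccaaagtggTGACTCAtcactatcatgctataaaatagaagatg
Mmp3 (chr9:7445722-7445821, plus strand): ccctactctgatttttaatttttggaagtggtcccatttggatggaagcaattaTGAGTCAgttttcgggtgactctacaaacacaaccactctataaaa
Mmp10 (chr9:7502242-7502341, plus strand): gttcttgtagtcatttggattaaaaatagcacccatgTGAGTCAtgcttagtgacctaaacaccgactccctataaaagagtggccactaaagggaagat
Mmp7 (chr9:7691990-7692089, plus strand): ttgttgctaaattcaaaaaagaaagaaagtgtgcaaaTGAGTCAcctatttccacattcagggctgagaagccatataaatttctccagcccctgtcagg
The match began 35 bases before the start in Mmp13, 46 in Mmp3 and 63 in both Mmp10 and Mmp7. The expressed genes Mmp14, Timp1, Timp2 and Timp3 lacked these letters and held the GC box GGGCGG (both strands). It stood in windows of 16 of the 32 genes and in 32.7% of all windows. A gene can have more than 1 window, so shares of genes and of windows are unlike measures, here and for the other motifs. Among the 16 were also Adamts18 and Mmp25, which were too low to be tested. In the 100 bases of Mmp14, Timp1, Timp2 and Timp3, the GC box on either strand is in capitals.
Mmp14 (chr14:54431498-54431597, plus strand): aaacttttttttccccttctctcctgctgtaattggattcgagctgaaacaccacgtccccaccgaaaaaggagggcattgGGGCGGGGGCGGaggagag
Timp1 (chrX:20870066-20870165, plus strand): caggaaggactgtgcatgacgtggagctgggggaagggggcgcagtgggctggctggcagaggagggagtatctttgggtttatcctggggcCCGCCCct
Timp2 (chr11:118355412-118355511, minus strand): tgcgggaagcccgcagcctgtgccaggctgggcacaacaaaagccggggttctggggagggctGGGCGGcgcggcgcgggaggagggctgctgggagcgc
Timp3 (chr10:86300312-86300411, plus strand): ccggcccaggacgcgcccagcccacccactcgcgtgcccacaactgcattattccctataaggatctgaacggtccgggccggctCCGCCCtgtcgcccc
The RefSeq start of Timp2 lies 329 bases from that of the GENCODE annotation, and those of Timp3 and Mmp14 lie 40 and 14 bases apart. A further search for ATCAAAG, the letters of TCF/LEF factors through which Wnt signalling acts, found them in Mmp7 alone, against 3.21% of all windows, and the CArG box of smooth muscle genes was in none of the 32, against 1.47%. A match of letters is a description and does not show that a factor binds there.

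The first comparison asked what CHIR changed in cells given retinoic acid. At each day, more of these genes were called lower than higher in RA/CHIR. At day 4, 0 of the 31 tested genes were called higher in RA/CHIR and 7 lower, against 3.34% and 4.28% of all genes. At day 7 the counts were 0 higher and 6 lower, against 4.06% and 6.61% of all genes. Day 10 had 2 higher and 12 lower, against 6.35% and 9.07%, and day 16 had 2 higher and 19 lower, against 8.41% and 12.9%. The median log2 difference of the 31 genes was -0.13, -0.505, -0.64 and -1.28 at days 4, 7, 10 and 16, while that of all genes was between 0 and 0.01 in size throughout. With a pseudocount of 0.1 in place of 1, the day-7 count of genes called came to 15 in place of 6.

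Over the 4 days, 22 genes were called lower at some day and 3 higher, and none was called in both directions. Adamts1, Mmp2 and Timp2 were lower in RA/CHIR at all 4 days, and Mmp19 and Mmp23 at 3 of them. The share of all genes called at any of the 4 days, at several or in both directions was not counted, so these counts cannot be read against it. The 6 genes called at no day were Mmp3, Mmp15, Mmp28, Adamts8, Adamts12 and Adamts17. Markers of other cells differed as well at day 16. In RA/CHIR, 8 of 8 smooth muscle markers and 7 of 8 fibroblast markers were lower, with medians of -4.71 and -2.6. Extraembryonic endoderm markers were higher for 8 of 8, with a median of 1.76. This was not so at day 4, when 0 smooth muscle markers were called (median -0.15). At that day 1 fibroblast marker was higher and 2 were lower (median 0.51), and 1 endoderm marker was higher and 2 were lower (median -0.9). Fibroblast markers summed to 431 to 469 FPKM in the RA/CHIR-16d libraries and 2934 to 3621 FPKM in those of RA-16d, none of them listed at 0 in either group. Pluripotency markers were higher in RA/CHIR for 4, 4, 5 and 6 of 7 at days 4, 7, 10 and 16, and summed to 411 to 428 FPKM in RA/CHIR-10d and 34.1 to 40.5 FPKM in RA-10d. At day 10 the smooth muscle sum was already 113 to 122 FPKM in RA/CHIR and 1256 to 1274 FPKM in RA. Their part in the differences was not tested, and in bulk RNA fewer cells of a type and less RNA per cell cannot be told apart.

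**Figure D2:**
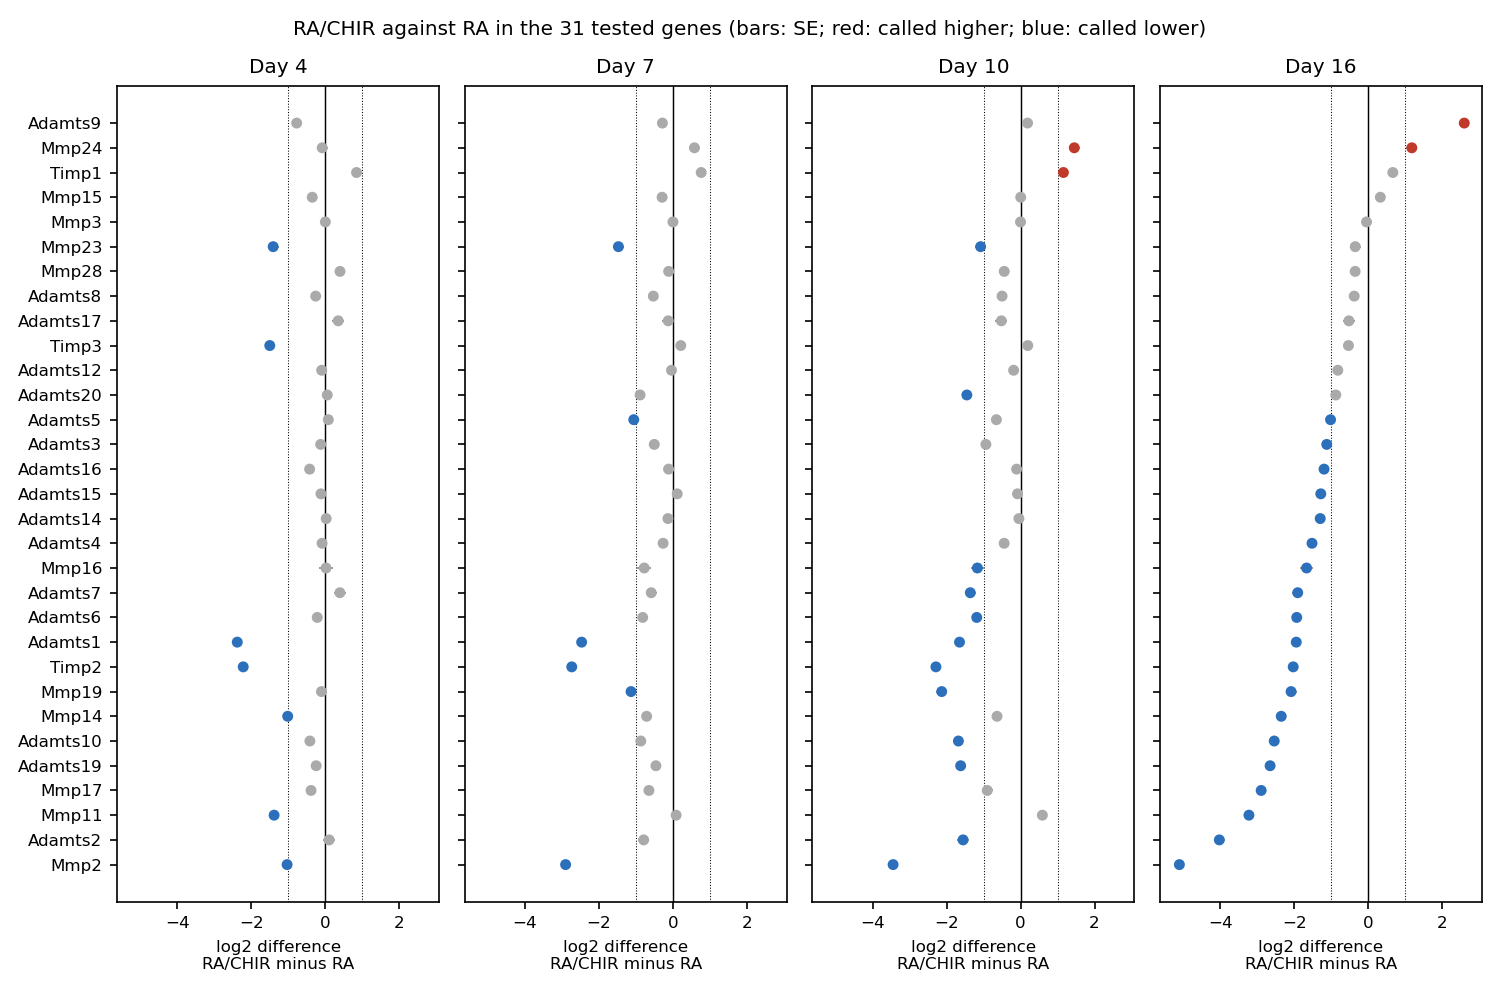
Log2 difference of RA/CHIR minus RA (horizontal axis, bars SE, dotted lines at 1 and -1) for the 31 tested genes at days 4, 7, 10 and 16, with genes ordered by the day-16 difference. Points called lower (blue) number 7, 6, 12 and 19 over the days, and the points called higher (red) are Mmp24 and Timp1 at day 10 and Adamts9 and Mmp24 at day 16.

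The gelatinase Mmp2 (chr8:92827291-92853420, plus strand), which cuts denatured collagen and basement membrane collagen, had the largest difference between the arms of the 31 genes. At day 16 it was at 16.4, 14.8 and 17.4 FPKM in RA/CHIR and 515, 639 and 620.5 FPKM in RA. The groups lay far apart, with a log2 difference of -5.1 ± 0.14 (SE, limma adjusted p = 2.79e-21). The gap opened by day: Mmp2 was at 6.12, 7.72 and 8.27 FPKM in RA/CHIR-4d against 16.3, 15.5 and 16.3 FPKM in RA-4d, at 10.5, 6.69 and 8.995 FPKM in RA/CHIR-7d against 72.3, 67.8 and 71.9 FPKM in RA-7d, and at 17.1, 17.6 and 20.4 FPKM in RA/CHIR-10d against 206, 205 and 215 FPKM in RA-10d. No RA/CHIR group had a mean above 18.3 FPKM, close to the 18.3, 18.03 and 12.3 FPKM of the mES libraries, while every RA library from day 7 on was above them. The log2 differences at days 4, 7 and 10 were -1.03, -2.9 and -3.44, and the call at day 4 was lost without RA/CHIR-4d replicate 1 (-0.92). The other gelatinase, Mmp9, was too low to be tested; its highest values were 3.06, 0.644 and 1.16 FPKM in mES, and no treated group had a mean above 0.633 FPKM.

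Among the membrane-type proteases, Mmp14 (chr14:54431612-54445364, plus strand), the activator of Mmp2, was called lower in RA/CHIR at days 4 and 16. It had 51.2, 47.9 and 42.6 FPKM in RA/CHIR-16d and 196, 301 and 245 FPKM in RA-16d, with no overlap and a log2 difference of -2.35 ± 0.1 (SE, limma adjusted p = 4.85e-17). At day 10 the arms were closer, with 35.4, 33.6 and 33.95 FPKM in RA/CHIR and 54.8, 52.2 and 54.6 FPKM in RA, and the log2 difference of -0.64 fell short of the threshold. The call at day 4 (-1.02) was lost without RA-4d replicate 1 (-0.98) and without RA/CHIR-4d replicate 2 (-0.96). Mmp15, a close relative of Mmp14, did not follow it: at day 16 it was at 38.1, 36.7 and 33.99 FPKM in RA/CHIR and 26.98, 26.2 and 33.1 FPKM in RA, and its log2 differences over the 4 days lay between -0.35 and 0.33. Mmp17, which is held in the membrane by a lipid anchor, was at 0.377, 0.557 and 0.665 FPKM in RA/CHIR-16d and 8.06, 12.8 and 10.7 FPKM in RA-16d, a log2 difference of -2.89 ± 0.14. Mmp16 was lower at day 10 (-1.17) and day 16 (-1.66), with means up to 3.09 FPKM in RA-16d. Its mean reached 1 FPKM in RA groups without CHIR alone, so the filter in part set these calls. Mmp24, known from the nervous system, ran the other way: it had 1.59, 2.997 and 2.6 FPKM in RA/CHIR-10d against 0.406, 0.238 and 0.0403 FPKM in RA-10d, and 1.79, 1.53 and 1.94 FPKM in RA/CHIR-16d against a mean of 0.22 FPKM in RA-16d, where 1 library was near 0. Its log2 differences were 1.45 ± 0.15 and 1.18 ± 0.15 (SE), at a level of at most 2.39 FPKM in any group mean. Mmp24 had passed the filter through these RA/CHIR libraries alone, so its direction was in part set by the filter. Mmp25 had its highest mean, 0.403 FPKM, in mES and was not tested.

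The stromelysin-type protease Mmp11 (chr10:75923222-75936496, minus strand), which is activated inside the cell before secretion, crossed over between the arms. At day 4 it had 10.2, 9.55 and 8.3 FPKM in RA/CHIR and 23.2, 28.1 and 26.8 FPKM in RA, a log2 difference of -1.39 ± 0.11. By day 10 it had 68.9, 65.1 and 65 FPKM in RA/CHIR and 39.5, 46.1 and 45.9 FPKM in RA, with every RA/CHIR library above every RA library, though the log2 difference of 0.59 was under the threshold. At day 16 it was at 3.89, 2.75 and 2.58 FPKM in RA/CHIR and 32.5, 40.9 and 36.96 FPKM in RA, a log2 difference of -3.22 ± 0.11 (SE, limma adjusted p = 2.69e-19). Mmp11 overlaps Chchd10, and it is not said that reads were counted by strand, so the genes may share reads.

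Of the other Mmp genes, Mmp23, a membrane-bound member of unusual build, was called lower in RA/CHIR at days 4, 7 and 10. It had 9.09, 7.22 and 7.47 FPKM in RA/CHIR-4d against 18.7, 24.1 and 25.7 FPKM in RA-4d, and 91.9, 97.02 and 101 FPKM in RA/CHIR-16d against 126, 125 and 119 FPKM in RA-16d. The log2 differences at days 4, 7, 10 and 16 were -1.41, -1.47, -1.08 and -0.35, the last of them not called. Mmp19, which cuts basement membrane proteins, was at 0.111, 0.176 and 0.133 FPKM in RA/CHIR-10d and 3.02, 5.25 and 3.95 FPKM in RA-10d, and at 0.58, 1.46 and 1.06 FPKM in RA/CHIR-16d and 6.43, 8.13 and 7.95 FPKM in RA-16d. It was called lower from day 7 on, with log2 differences of -1.13, -2.13 and -2.08. Mmp28 was highest in SMC, with a mean of 3.05 FPKM, and its log2 differences between the arms lay between -0.44 and 0.396. Mmp21 did not exceed a mean of 0.138 FPKM in any group.

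**Figure D3:**
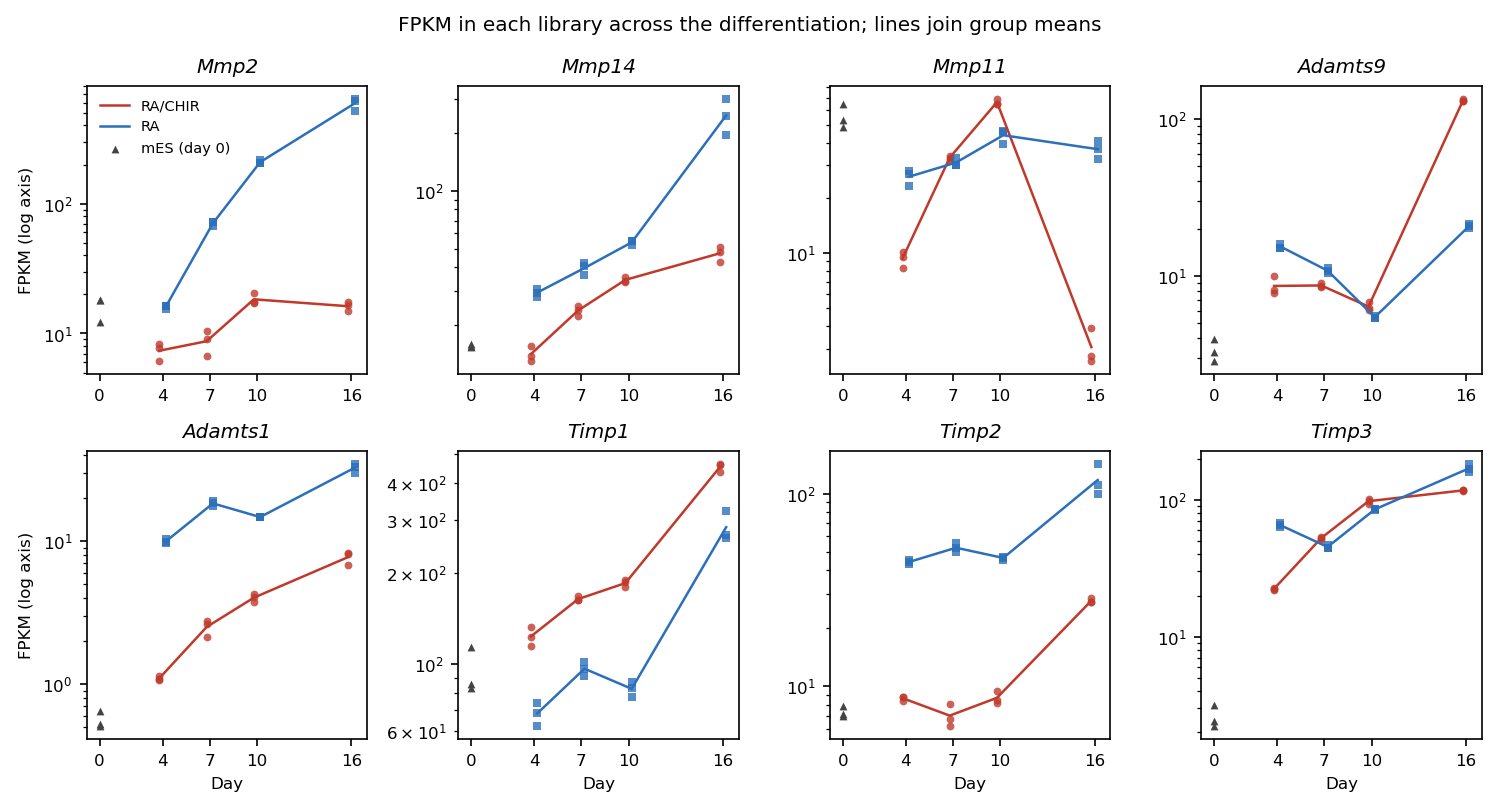
FPKM of 8 genes in each library (points, logarithmic axis) against the day, for RA/CHIR (red circles), RA (blue squares) and mES at day 0 (triangles), with lines through the group means. Mmp2, Adamts1 and Timp2 run lower in RA/CHIR at every day, Timp1 runs higher, Mmp11 drops to a mean of 3.07 FPKM and Adamts9 climbs to 131 FPKM at day 16 in RA/CHIR.

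The 3 detected inhibitors differed from each other in how they stood between the arms. Timp2 (chr11:118301069-118355740, minus strand), the adaptor for Mmp2 activation, was lower in RA/CHIR at each day. It had 8.11, 6.8 and 6.23 FPKM in RA/CHIR-7d and 49.8, 52.03 and 55.3 FPKM in RA-7d, and 28.8, 27.4 and 27.3 FPKM in RA/CHIR-16d and 99.8, 142 and 110.4 FPKM in RA-16d. The groups did not overlap at any of the 4 days, and the log2 differences were -2.22, -2.74, -2.29 and -2.02, each with a limma adjusted p of 5.96e-17 or less. Timp1 (chrX:20870166-20874735, plus strand), a secreted inhibitor of most soluble Mmp enzymes, was higher: it had 187, 180.3 and 189 FPKM in RA/CHIR-10d and 86.97, 83.3 and 77.4 FPKM in RA-10d, and 433, 462 and 458 FPKM in RA/CHIR-16d and 323, 262 and 269 FPKM in RA-16d. All RA/CHIR libraries lay above all RA libraries of the same day, but only day 10 passed the threshold, with a log2 difference of 1.16 ± 0.104; the values at days 4, 7 and 16 were 0.84, 0.76 and 0.67. Timp3 (chr10:86300372-86349506, plus strand), the matrix-bound inhibitor that also blocks ADAMTS enzymes, was lower in RA/CHIR at day 4 alone, with 22.7, 22.1 and 22.4 FPKM in RA/CHIR and 65.1, 62.9 and 67.9 FPKM in RA (-1.5 ± 0.07). At day 10 it was at 101, 98.3 and 93.8 FPKM in RA/CHIR and 86.1, 84.5 and 85.1 FPKM in RA, a log2 difference of 0.196, and at day 16 the difference was -0.53. Timp4 did not exceed a mean of 0.211 FPKM and was not tested. Timp1, Timp3 and Timp4 lie within the genes Syn1, Syn3 and Syn2 of the synapsin family, so reads may be shared there too.

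Among the proteoglycan-cutting ADAMTS enzymes, 1 gene was called higher and 4 lower in RA/CHIR than in RA at day 16, against 8.41% and 12.9% of all genes. Adamts9 (chr6:92772699-92943492, minus strand), which cuts versican and is needed in the early mouse embryo, was at 134, 129.7 and 129 FPKM in RA/CHIR-16d and 21.5, 20.7 and 20.2 FPKM in RA-16d. Its RA/CHIR libraries agreed closely and had a mean 6.3 times that of RA, a log2 difference of 2.6 ± 0.083 (SE, limma adjusted p = 1.34e-19). No earlier day was called, the differences being -0.78, -0.28 and 0.19. Adamts1 (chr16:85793827-85803113, minus strand), an enzyme of the same substrate group, was lower in RA/CHIR from day 4 on, and so stood opposite to Adamts9 at day 16. Adamts1 had 1.15, 1.06 and 1.09 FPKM in RA/CHIR-4d against 9.69, 9.81 and 10.4 FPKM in RA-4d, and 8.3, 8.13 and 6.85 FPKM in RA/CHIR-16d against 29.9, 33.3 and 34.7 FPKM in RA-16d. The log2 differences of Adamts1 were -2.38, -2.47, -1.65 and -1.94 over the days. Adamts5, its neighbour on chromosome 16 and the main aggrecanase of mouse cartilage, was low, with 1.75, 1.74 and 2.05 FPKM in RA/CHIR-16d and 4.45, 5.03 and 4.79 FPKM in RA-16d. It was called at day 7 (-1.06) and day 16 (-1.02), but both calls were lost with quantile normalization, and that of day 16 also without RA-16d replicate 2 (-0.98) or without RA/CHIR-16d replicate 1 or 2 (-0.99 in both cases). Adamts4 (-1.52) and Adamts15 (-1.28) were lower at day 16, with RA-16d means of 7.2 and 5.98 FPKM. Adamts20 was lower at day 10 (-1.45), when its RA mean was 1.85 FPKM, its highest in any group and the only one of at least 1 FPKM. Adamts8 was not called at any day.

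All 3 procollagen N-propeptidases, which trim the amino-terminal ends of fibrillar procollagens, were lower in RA/CHIR at day 16, against 12.9% of all genes. Adamts2 (chr11:50602084-50807573, plus strand) was at 1.33, 0.892 and 0.97 FPKM in RA/CHIR-16d and 25.4, 43.2 and 30.8 FPKM in RA-16d, a log2 difference of -4.02 ± 0.16 (SE, limma adjusted p = 7.18e-18) and the second largest of the 31 genes. Adamts14 had 0.208, 0.406 and 0.204 FPKM in RA/CHIR-16d and 2.34, 1.84 and 2.18 FPKM in RA-16d (-1.29 ± 0.11). Adamts3, which also takes part in the activation of a lymphatic growth factor, had means of 0.16 FPKM in RA/CHIR-16d and 1.55 FPKM in RA-16d. Its call (-1.12) was lost with quantile normalization (-0.81). The mean of Adamts3 reached 1 FPKM in RA groups without CHIR alone, so the filter in part set this call and its place among the 3.

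The remaining ADAMTS genes were called lower in RA/CHIR than in RA at day 16, or not called. Adamts10, which binds fibrillin, was at 5.73, 5.13 and 4.51 FPKM in RA/CHIR-16d and 29.5, 37.5 and 36.9 FPKM in RA-16d, and was called lower at day 10 (-1.68) and day 16 (-2.54). Adamts6, its closest relative, was lower at the same days (-1.18 and -1.93), with means of 0.467 FPKM in RA/CHIR-16d and 4.58 FPKM in RA-16d. Adamts7, which can cut Comp, was at 1.91, 1.28 and 1.75 FPKM in RA/CHIR-16d and 7.3, 9.57 and 9.88 FPKM in RA-16d, and was lower at days 10 and 16 (-1.36 and -1.9), while the related Adamts12 was not called. Adamts19 was all but restricted to the RA arm in its levels: its means were 0.0241 FPKM in RA/CHIR-10d against 2.18 FPKM in RA-10d, and 0.0103 FPKM in RA/CHIR-16d against 5.34 FPKM in RA-16d, with log2 differences of -1.62 and -2.65. In SMC it was listed at 0 in all 3 libraries. Adamts19 reached 1 FPKM in 6 libraries, and only RA-10d and RA-16d had a mean of at least 1 FPKM, so the filter in part set these calls. Adamts16 was lower at day 16 (-1.19), a call lost with quantile normalization (-0.88), and it had passed the filter through RA-16d alone. Adamts17 was not called, with its highest mean, 1.44 FPKM, in RA-10d. Adamts13, the von Willebrand factor protease, and Adamts18 had means of at most 0.0262 and 0.306 FPKM.

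The next comparison followed each arm over the 6 days after the inducers were removed. In the RA/CHIR arm, 6 of the 31 genes were higher at day 16 than at day 10 and 1 was lower, against 8.47% and 6.28% of all genes. In the RA arm, 15 were higher and 0 lower, against 7.37% and 1.8% of all genes. The median log2 difference of the 31 genes was 0.18 in the RA/CHIR arm and 0.99 in the RA arm, beside 0 and 0.007 for all genes. Timp1, Timp2, Adamts4, Adamts5 and Adamts9 were higher at day 16 in both arms, though the call of Adamts5 in the RA/CHIR arm (1.03) was lost without RA/CHIR-16d replicate 3 (0.98) and with quantile normalization. For all genes, the share that rose in both arms was not counted. Mmp23 was the sixth gene to rise in the RA/CHIR arm (1.25), and Mmp11 was the gene that fell. With a pseudocount of 0.1, the RA/CHIR count came to 12 in place of 7. Fibroblast markers were higher at day 16 for 7 of 8 in the RA/CHIR arm and 8 of 8 in the RA arm, and smooth muscle markers for 4 of 8 and 8 of 8. The summed fibroblast markers were at 431 to 469 FPKM in RA/CHIR-16d, against 27.1 to 28.1 FPKM in RA/CHIR-10d, and at 2934 to 3621 FPKM in RA-16d, against 207 to 223 FPKM in RA-10d; their part was not tested.

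Whether the step differed between the arms was tested as the change seen with RA/CHIR less the change seen with RA alone. By this test 1 gene was higher and 10 were lower, against 6.02% and 8.81% of all genes, with a median of -0.497 over the 31 genes and -0.013 over all genes. Adamts9 was the gene that rose more in RA/CHIR: it was at 131 FPKM in RA/CHIR-16d against 6.36 FPKM in RA/CHIR-10d, a ratio of 20.6, and at 20.8 FPKM in RA-16d against 5.44 FPKM in RA-10d, a ratio of 3.82. The difference of the changes was 2.41 ± 0.12 (SE, limma adjusted p = 7.77e-15). Mmp11 was 21.6 times lower at day 16 than at day 10 in the RA/CHIR arm (log2 difference -4.06 ± 0.11) and was not called in the RA arm (-0.25), so that the changes differed by -3.81 ± 0.15. Adamts2 and Mmp14 climbed mainly in the RA arm, with log2 differences of 3.19 and 2.16 there against 0.72 and 0.45 in the RA/CHIR arm. Their differences between the arms were -2.47 and -1.71, and those of Mmp17 and Mmp2 were -1.99 and -1.66. Adamts14, Adamts15, Adamts16, Adamts4 and Adamts19 differed by -1.25, -1.2, -1.09, -1.07 and -1.03. The last 2 of these were near the threshold: Adamts4 fell below it without RA-16d replicate 2 (-0.96) or RA/CHIR-16d replicate 1 (-0.99), and Adamts19 without RA-10d replicate 1 (-0.97), RA-10d replicate 3 (-0.93) or RA-16d replicate 3 (-0.99). The rise of Adamts19 within the RA arm (1.01) was lost without the same 3 libraries, at 0.95, 0.91 and 0.97, with TMM-type scaling (0.99) and with quantile normalization (0.95). Quantile normalization also ended the calls of the difference for Adamts16 (-0.83) and Adamts19 (-0.99) and that of the rise of Adamts16 in the RA arm (0.92), and a pseudocount of 0.1 ended that of the difference for Adamts4 (-0.83). Adamts16 had passed the filter through RA-16d alone.

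**Figure D4:**
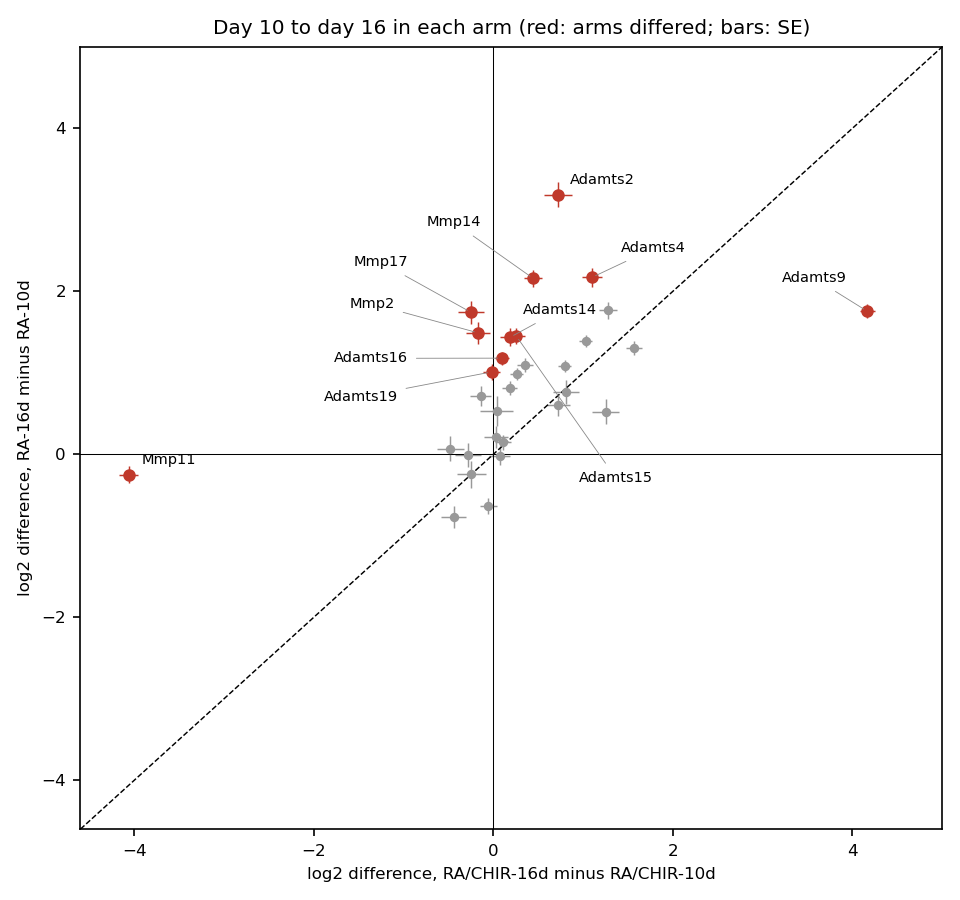
Log2 difference between day 16 and day 10 in the RA/CHIR arm (horizontal) and in the RA arm (vertical) for the 31 tested genes, with SE bars and a dashed line where both are equal; the 11 genes whose changes differed between the arms are red and named. Adamts9 lies far to the right at 4.17 and 1.76, Mmp11 far to the left at -4.06 and -0.25, and 10 of the named genes, all but Adamts9, lie above the line.

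Against the starting stem cells, the inhibitor Timp3 and the membrane-type protease Mmp15 were higher in both arms at day 4. In RA/CHIR-4d, 5 of the 31 genes were higher than in mES and 4 lower, against 9.06% and 9.13% of all genes, and in RA-4d 7 were higher and 3 lower, against 11.7% and 11.7%. These comparisons and those of day 16 share the 3 mES libraries. Timp3 was at 22.7, 22.1 and 22.4 FPKM in RA/CHIR-4d and 65.1, 62.9 and 67.9 FPKM in RA-4d, against 2.23, 3.15 and 2.41 FPKM in mES, log2 differences of 2.71 ± 0.07 and 4.21 ± 0.07. Timp2 was higher in RA-4d (2.43) and not called in RA/CHIR-4d (0.21), the arms themselves differing by -2.22 as given above. Mmp15 rose in both, to 39.2, 36.6 and 38.96 FPKM in RA/CHIR-4d and 46.5, 50.7 and 50.5 FPKM in RA-4d, against 5.82, 6.06 and 3.04 FPKM in mES. Mmp23, Adamts9 and Adamts15 were also higher in both, with log2 differences of 1.2, 1.14 and 1.26 in RA/CHIR-4d and 2.61, 1.92 and 1.38 in RA-4d. Adamts1 was higher in RA-4d (2.81), while its difference in RA/CHIR-4d was 0.43.

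The genes that fell from the stem cell level were Adamts14, Mmp11 and Mmp17 in both arms. Adamts14 was at 0.109, 0.208 and 0.106 FPKM in RA/CHIR-4d and 0.202, 0.0353 and 0.136 FPKM in RA-4d, against 5.03, 5.54 and 3.66 FPKM in mES, its highest group. Mmp11 differed by -2.44 in RA/CHIR-4d and by -1.06 in RA-4d, the second call being lost without mES replicate 1 (-0.94), with quantile normalization (-0.95) or without RA-4d replicate 1 (-0.98), and Mmp17 by -1.57 and -1.18. Mmp2 was lower in RA/CHIR-4d (-1.03), a call lost without mES replicate 1 (-0.94), mES replicate 2 (-0.94) or RA/CHIR-4d replicate 1 (-0.92), and that of Mmp23 in RA/CHIR-4d was lost without mES replicate 2 (0.97). The mES cells had grown on fibroblasts, and the fibroblast markers summed to 21.6 to 30.3 FPKM in RA/CHIR-4d, 30.6 to 32.5 FPKM in RA-4d and 38.6 to 64.99 FPKM in mES, and their part was not tested.

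At day 16 the 3 tested inhibitors and some of the proteases were above the stem cell level in both arms. In RA/CHIR-16d, 10 of the 31 genes were higher than in mES and 3 lower, against 18% and 18.3% of all genes, and in RA-16d 22 were higher and 0 lower, against 20.4% and 16.3%. The medians of the 31 genes were 0.199 in RA/CHIR-16d and 1.75 in RA-16d, beside -0.022 and 0.03 for all genes. With a pseudocount of 0.1, the RA/CHIR-16d count of genes called was 20 in place of 13. Timp1, Timp2, Timp3, Mmp14, Mmp15, Mmp23, Adamts1, Adamts5 and Adamts9 were higher in both arms, which were set against the same mES libraries. The share of all genes higher in both arms was not counted. In RA/CHIR-16d the largest rises were those of Timp3 (5.05), Adamts9 (4.93), Mmp23 (4.66), Mmp15 (2.68) and Adamts1 (2.48), and the falls were Mmp11 (-3.8), Adamts14 (-2.16) and Mmp17 (-2.12). In RA-16d the largest rises were those of Timp3 (5.58), Mmp2 (5.12), Mmp23 (5.003), Adamts2 (4.43) and Adamts1 (4.42). The genes higher there also held Adamts16, which had passed the filter through RA-16d alone. Adamts3, Adamts19 and Mmp16, higher there too, had means of at least 1 FPKM in RA groups without CHIR alone. The filter in part set the calls of these genes, and that of Mmp24 in RA/CHIR-16d. In RA-16d, 8 of 8 fibroblast markers (median 6.24) and 8 of 8 smooth muscle markers (median 6.47) were higher than in mES, and in RA/CHIR-16d 5 and 5 of 8 were; pluripotency markers were lower for 7 of 7 in RA/CHIR-16d and 7 of 7 in RA-16d. Their part was not tested. Mmp2 in RA/CHIR-16d differed from mES by 0.019 ± 0.14 (SE), which was not called. The call of Adamts12 in RA-16d (1.02) was lost without RA-16d replicate 2 (0.91), and with TMM-type scaling or quantile normalization, and that of Adamts3 there with quantile normalization (0.87).

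The last comparisons set the day-16 cells beside the lines they are labelled after. XEN and SMC differed from each other in most of the 31 genes: 5 were higher in XEN and 19 lower, against 12.5% and 17.2% of all genes. The genes higher in XEN were Adamts9 (4.84), Adamts15 (3.91), Mmp15 (3.26), Adamts8 (1.41) and Adamts7 (1.22). The widest gaps in the other direction were those of Mmp23 (-7.27), Mmp2 (-7.11), Adamts2 (-7.09), Adamts5 (-6.27) and Timp1 (-5.36). Mmp2 was at 0.343, 0.0328 and 0.0402 FPKM in XEN and 149.9, 152 and 163 FPKM in SMC. Timp1 was at 117, 103 and 142 FPKM in XEN and 5063, 5159.7 and 4664 FPKM in SMC, the highest level of any of the 46 genes in any group. Fibroblast markers were lower in XEN for 8 of 8 (median -9.07; summed 1.34 to 1.62 FPKM in XEN and 11832 to 12159.8 FPKM in SMC), as were 8 of 8 smooth muscle markers, and their part was not tested. All 3 detected inhibitors and the activator Mmp14 (-4.26) were lower in XEN, as was Mmp3, whose direction the filter had set.

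RA/CHIR-16d had 9 of the 31 genes higher than XEN and 4 lower, against 14.5% and 8.64% of all genes. Mmp23 was the widest apart, at 91.9, 97.02 and 101 FPKM in RA/CHIR-16d and 1.38, 1.17 and 0.49 FPKM in XEN (5.63 ± 0.15), and Mmp2 came next, at a log2 difference of 3.93 ± 0.14. Adamts9, the leading ADAMTS of both, was at 134, 129.7 and 129 FPKM in RA/CHIR-16d and 56.2, 50.01 and 49.3 FPKM in XEN (1.32 ± 0.083). Timp1 (1.91) and Adamts5 (1.51) were higher as well. Lower in RA/CHIR-16d were Adamts15 (-2.62), Timp2 (-2.11), Mmp11 (-1.11) and Adamts7 (-1.07). Timp2 had 28.8, 27.4 and 27.3 FPKM in RA/CHIR-16d and 122, 128 and 119.6 FPKM in XEN, so that here the line lay near the RA-16d libraries given above. Mmp14 and Timp3 were not called, with log2 differences of 0.59 ± 0.1 and 0.32 ± 0.07 (SE). Quantile normalization ended the calls of Adamts4 (0.701), Mmp24 (0.74) and Adamts2 (0.78), all higher in RA/CHIR-16d. Mmp24 had passed the filter through RA/CHIR libraries alone, so the filter in part set its call. Calls near the threshold were lost for Adamts2 without RA/CHIR-16d replicate 1 (0.94), for Adamts7 without RA/CHIR-16d replicate 2 (-0.97) and for Mmp15 without XEN replicate 3 (0.97). The fibroblast marker sum of 431 to 469 FPKM in the RA/CHIR-16d libraries stood beside 1.34 to 1.62 FPKM in XEN, with all 8 of these markers at a mean under 1 FPKM in XEN; its part was not tested.

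RA-16d had 9 of the 31 genes higher than SMC and 12 lower, against 15% and 10.5% of all genes. Mmp15 (4.03), Adamts9 (3.57), Adamts19 (2.66), Adamts15 (2.56) and Adamts7 (2.05) led the first group. Adamts16 in this group had passed the filter through RA-16d alone. Adamts19 and Mmp16, also in it, had means of at least 1 FPKM in RA groups without CHIR alone. The filter in part set the calls of these genes. Mmp2 was also higher, at 515, 639 and 620.5 FPKM in RA-16d and 149.9, 152 and 163 FPKM in SMC, a log2 difference of 1.92 ± 0.14. Mmp3 (-4.38), Timp1 (-4.12), Adamts5 (-3.74), Adamts12 (-3.19) and Adamts2 (-2.04) led the genes lower in RA-16d; Mmp3 had passed the filter through SMC alone, so its direction was set by the filter. Mmp14 was at 196, 301 and 245 FPKM in RA-16d and 611, 598 and 620.0 FPKM in SMC (-1.32). With quantile normalization this call and those of Timp3, Mmp23, Mmp16, Adamts8 and Adamts16 were lost, the value of Mmp14 being -0.75. Fibroblast markers were higher in RA-16d for 2 of 8 and lower for 6 (median -1.45; summed 2934 to 3621 FPKM in RA-16d and 11832 to 12159.8 FPKM in SMC), 6 of 8 extraembryonic endoderm markers were higher, and their part was not tested.

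**Figure D5:**
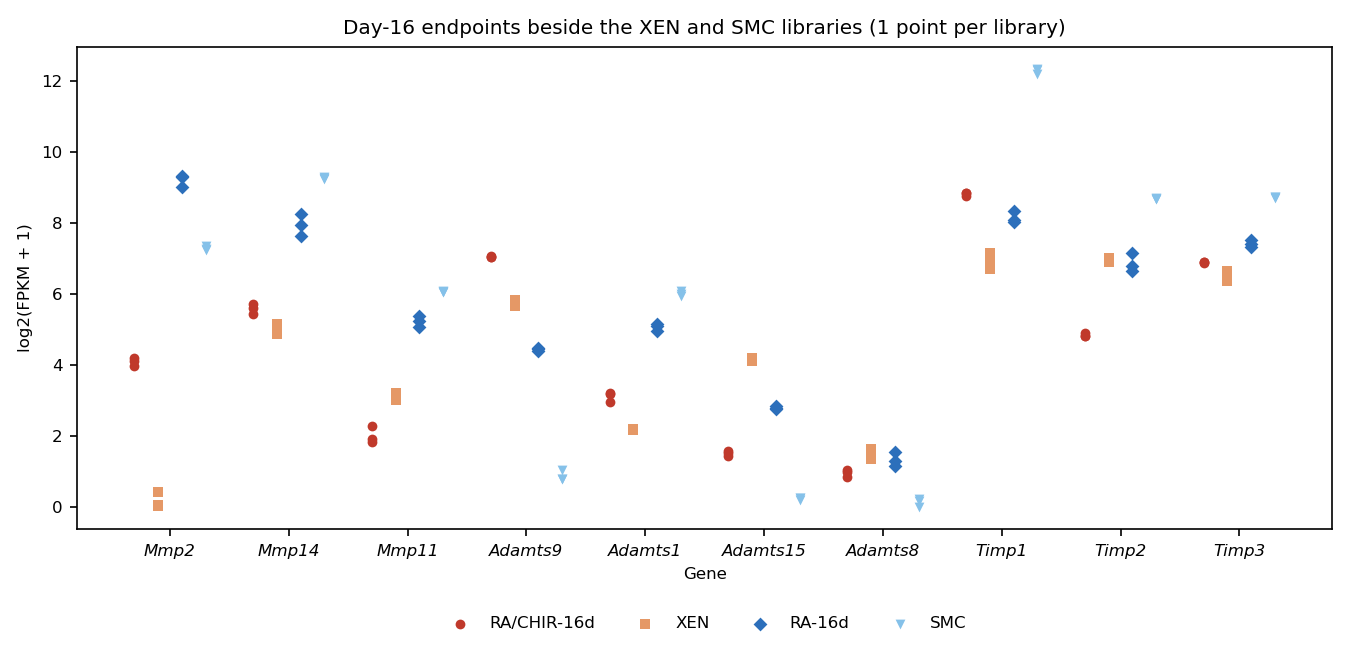
Level of 10 genes as log2(FPKM + 1) in each library of RA/CHIR-16d (circles), XEN (squares), RA-16d (diamonds) and SMC (triangles). Adamts9 and Adamts15 lie lowest in SMC, Mmp2 lies near 0 in XEN and highest in RA-16d, and Timp1, Timp2, Timp3 and Mmp14 lie highest in SMC.

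Genes that act beside these enzymes were counted in lists at day 16 between the arms, where 8.41% of all genes were higher in RA/CHIR and 12.9% lower. The lists, like the gene families themselves, were chosen with results of these data known. Among 16 tested of 17 other inhibitors and activators of Mmp enzymes, 3 were higher in RA/CHIR and 6 lower, with a median of -0.17. The broad protease trap A2m (-3.86) and the plasminogen activator inhibitor Serpine2 (-3.48) were lower and the proteoglycan Spock2 (3.37) higher. Of 12 fibrillar collagens and elastic fibre genes, which are substrates, 0 were higher and 7 lower, with a median of -1.95; Eln, at 0.0556, 0 and 0.0759 FPKM in RA/CHIR-16d and 96.7, 163 and 127 FPKM in RA-16d, Fbn2 (-3.56) and Col3a1 (-2.67) were furthest apart. This list shares Col1a1, Col1a2 and Col3a1 with the fibroblast markers. Procollagen processing and cross-linking genes had 1 higher and 4 lower of 10 tested of 12 (median -0.69), led by Loxl1 (-4.14) and Loxl3 (-2.65), both cross-linking oxidases, and by the protease Mep1b (2.76). A list of proteoglycan substrates of ADAMTS enzymes also held the Hapln genes (link proteins) and Comp. It had 1 higher and 1 lower of 6 tested of 9 (median 0.0078), namely Hapln4 (1.06) and the versican gene Vcan. The proteoglycans among the tested genes were Vcan and Bcan, so the count and median rest mainly on other genes. Vcan was at 3.79, 4.36 and 4.34 FPKM in RA/CHIR-16d and at 23.8, 32.96 and 27.3 FPKM in RA-16d, a log2 difference of -2.48 ± 0.12. It was also called lower in RA/CHIR at day 7 (-2.47) and day 10 (-2.98). The ADAM proteases had 0 higher and 3 lower of 10 tested of 11 (median -0.17), namely Adam33 (-2.42), Adam22 (-1.78) and Adam12 (-1.34), and the ADAMTS-like proteins, which lack the protease part, had 1 higher and 1 lower of 3 tested of 6 (median 0.801), namely Adamtsl5 (1.58) and Adamtsl1 (-1.72). Cathepsins, the proteases of the lysosome, had 5 higher and 0 lower of 11 (median 0.996), led by Ctsl (2.21), Ctsc (1.95) and Ctsa (1.9).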

How the data were processed

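The authors deposited 1 table of FPKM per gene and library; per the submitters' processing notes, the tools were Trimmomatic 0.33, HISAT2 2.0.4, Cufflinks and Cuffdiff on build GRCm38, with no parameters given. The fit took log2(FPKM + 1), not scaled again, in 1 linear model of 11 groups over 33 libraries (limma 3.58.1, R 4.3.3, trended prior variance), after a filter of 1 FPKM in 3 libraries. Tests are two-sided, adjusted by Benjamini-Hochberg over all 16508 genes, and were tested on simulated data first. The 14 comparisons share groups and thus libraries. Coordinates are from GENCODE M21 and promoter windows from RefSeq. The gene families (their members taken by name alone), the related lists (inhibitors and activators, substrates, other proteases) and the marker lists (pluripotent, extraembryonic endoderm, smooth muscle, fibroblast, endothelial, macrophage) were chosen with earlier results of these data known. Every gene with a group mean of at least 1 FPKM is named, and from each related list the 3 called genes with the largest difference. Another scaling, pseudocount and filter, a replicate block and leaving out each library were tried. Overlapping genes (such as Adamts2, Adamts4, Adamts7, Adamts9, Mmp19, Mmp24, Mmp28 and Timp2 with their neighbours) and close paralogs such as Mmp1a and Mmp1b may share reads.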

Additional observations from a re-analysis of the deposited data

Results flagged for a closer look

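The change of 11 genes between day 10 and day 16 differed between the arms by the test of the difference itself (log2 change with RA/CHIR less that with RA alone, limma). It was higher for Adamts9 (2.41). It was lower for Mmp11 (-3.81), Adamts2 (-2.47), Mmp17 (-1.99), Mmp14 (-1.71), Mmp2 (-1.66), Adamts14 (-1.25), Adamts15 (-1.20), Adamts16 (-1.09), Adamts4 (-1.07) and Adamts19 (-1.03). By the same test, 6.02% of all genes were higher and 8.81% lower. Adamts16 had passed the filter through RA-16d alone. With quantile normalization the calls of Adamts16 (-0.83) and Adamts19 (-0.99) were lost, and with a pseudocount of 0.1 that of Adamts4 (-0.83). The call of Adamts4 was also lost without RA-16d replicate 2 (-0.96) or RA/CHIR-16d replicate 1 (-0.99). That of Adamts19 was lost without RA-10d replicate 1 (-0.97), RA-10d replicate 3 (-0.93) or RA-16d replicate 3 (-0.99).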

How the results depend on the processing

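With a pseudocount of 0.1 in place of 1, counts of calls rose most: for all genes in RA/CHIR against RA to 2192 (1259 with 1) at day 4, 2964 (1762) at day 7 and 3888 (2546) at day 10, and between day 16 and day 10 to 2339 (1514) in the RA arm and 3820 (2435) in the RA/CHIR arm. Of the 31 genes it called 15 (6) at day 7, 20 (13) in RA/CHIR-16d against mES and 12 (7) between day 16 and day 10 in the RA/CHIR arm. Every other count, under TMM-type scaling, quantile normalization, a filter of 5 FPKM, no filter, the replicate block or leaving out any 1 library, was within 1.5 times its value. Replicate numbers did not pair the libraries: over 165 same-number pairs, deviations correlated between -0.125 and 0.112. With the replicate number as a block, 21 genes were called between the arms at day 16 (21 without), and none of the 193 calls of single genes was lost. Of those 193, quantile normalization lost 21, TMM-type scaling 2, the lower pseudocount 1 and leaving out a library 14, all with the same sign. Signs turned only in values that were not called: Mmp2 in RA-4d against mES (0.007) was -0.0091 with TMM-type scaling and -0.17 to 0.10 without 1 library; Mmp2 in RA/CHIR-16d against mES (0.019) was -0.042 with TMM-type scaling, -0.031 with quantile normalization and -0.16 to 0.11 without 1 library; with quantile normalization Adamts6 in RA/CHIR-16d against XEN was -0.019 and Mmp24 in RA-16d against SMC -0.18; and the difference of Mmp19 between the arms' steps was -0.11 to 0.22 without 1 library. The causes were not tested. Without fragment counts, what depth limits is unknown.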

Other observations

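The substrates and the lysosomal proteases were also counted between the arms before day 16, when 3.34%, 4.06% and 6.35% of all genes were higher in RA/CHIR and 4.28%, 6.61% and 9.07% lower at days 4, 7 and 10. Of 12 fibrillar collagen and elastic fibre genes, 1 was higher in RA/CHIR and 3 were lower at day 4, 0 higher and 7 lower at day 7, and 0 higher and 8 lower at day 10, with medians of 0.094, -1.3 and -1.68. Of 11 cathepsins, 1, 3 and 5 were higher in RA/CHIR at days 4, 7 and 10 and 0, 0 and 1 lower, with medians of 0.197, 0.52 and 0.95. Over the step between day 10 and day 16 in the RA arm, 7 of the 12 collagen and elastic fibre genes were higher at day 16 and 1 was lower, against 7.37% and 1.8% of all genes, with a median of 2.01.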
